A study of Mus musculus with 24 samples.

Results

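The tubular injury and repair markers described here are 36 genes that kidney research uses to recognise a hurt tubule: keratins, secreted injury proteins, annexins with their S100 partners, genes of failed repair and progenitor-like cells, and surface receptors and growth genes. They were chosen by name, as a list, with earlier results of these data known. They were found among the array probes through the accession that each probe carries, with the brightest probe over all arrays standing for its gene. All 36 passed the filter on dim probes, among 17736 genes tested in all.

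The RNA came from kidneys of male mice of the outbred strain Crl:CD1(ICR), with 1 single-colour array per sample. The DKD+enarodustat group (n = 9) had received alloxan intravenously at 90 mg/kg and then feed with 0.01% enarodustat by weight. The DKD group (n = 9) had received the same alloxan and normal feed, and the Sham group (n = 6) vehicle and normal feed. Alloxan or vehicle was given 3 days before grouping, the diabetic groups were matched on blood glucose and body weight, and kidneys were collected 16 days after grouping; the animals' age is not given in the labels. Alloxan destroys insulin-producing cells, so DKD stands for an insulin-deficient model in its early weeks, and no group received enarodustat without alloxan. Both diabetic groups had received alloxan and Sham had not, so exposure to alloxan itself and diabetes cannot be told apart. Enarodustat blocks prolyl hydroxylases, the enzymes through which cells with enough oxygen degrade the hypoxia-inducible factor (HIF).

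When tubule cells are injured they lose parts of their transport programme and switch on genes that are nearly silent in a resting tubule, among them simple-epithelial keratins, the surface protein KIM-1 (gene Havcr1) and the secreted protein NGAL (gene Lcn2). Most cells later return to their former state, while some stay in a state called failed repair, marked by Vcam1, Dcdc2a and signals that draw in macrophages. Several of these genes are also normal products of the collecting duct, of the urothelium or of scattered progenitor-like tubule cells.

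Each level is the log2 signal of the probe minus the 75th percentile of that array, so a negative level is still a measured one, and levels of different genes are not compared because each has its own probe. Differences are log2 differences ± SE from limma over all 24 arrays, with p-values adjusted by Benjamini-Hochberg over the 17736 genes, and a gene rose or fell where the adjusted p was under 0.05. In whole kidney, fewer cells of a type and less RNA per cell cannot be told apart. The 12 listed proximal tubule markers, whose cells make up much of a mouse kidney, were all tested and had a mean level of 6.17 to 6.48 in DKD+enarodustat, 6.34 to 6.71 in DKD and 6.49 to 6.73 in Sham arrays. Arrays of 1 group correlated at 0.964 to 0.991 across genes. DKD 2 stood apart in the members: it was the highest of the 9 DKD arrays for 22 of the 36 members (61.1%) but for 9.43% of all genes tested, so the members whose call it changes are given with and without it.

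In diabetic kidneys the list moved in part. Against Sham, 13 of 36 members rose and 1 fell in DKD+enarodustat, where 8.74% of all genes tested rose and 6.75% fell. In DKD, 8 rose and 2 fell against Sham, beside 5.47% and 6.13% of all genes. Between DKD+enarodustat and DKD, limma called 0 of 36 members, beside 0.609% of all genes higher and 0.107% lower; at an unadjusted p under 0.05 it had 10, of which 8 were higher and 2 lower with enarodustat. The median difference over the members was 0.44 in DKD+enarodustat and 0.30 in DKD against Sham, and 0.14 between the diabetic groups, while the medians over all genes tested were −0.02, −0.01 and 0.00. The 3 comparisons share arrays, so they do not support each other.

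**Figure D1:**
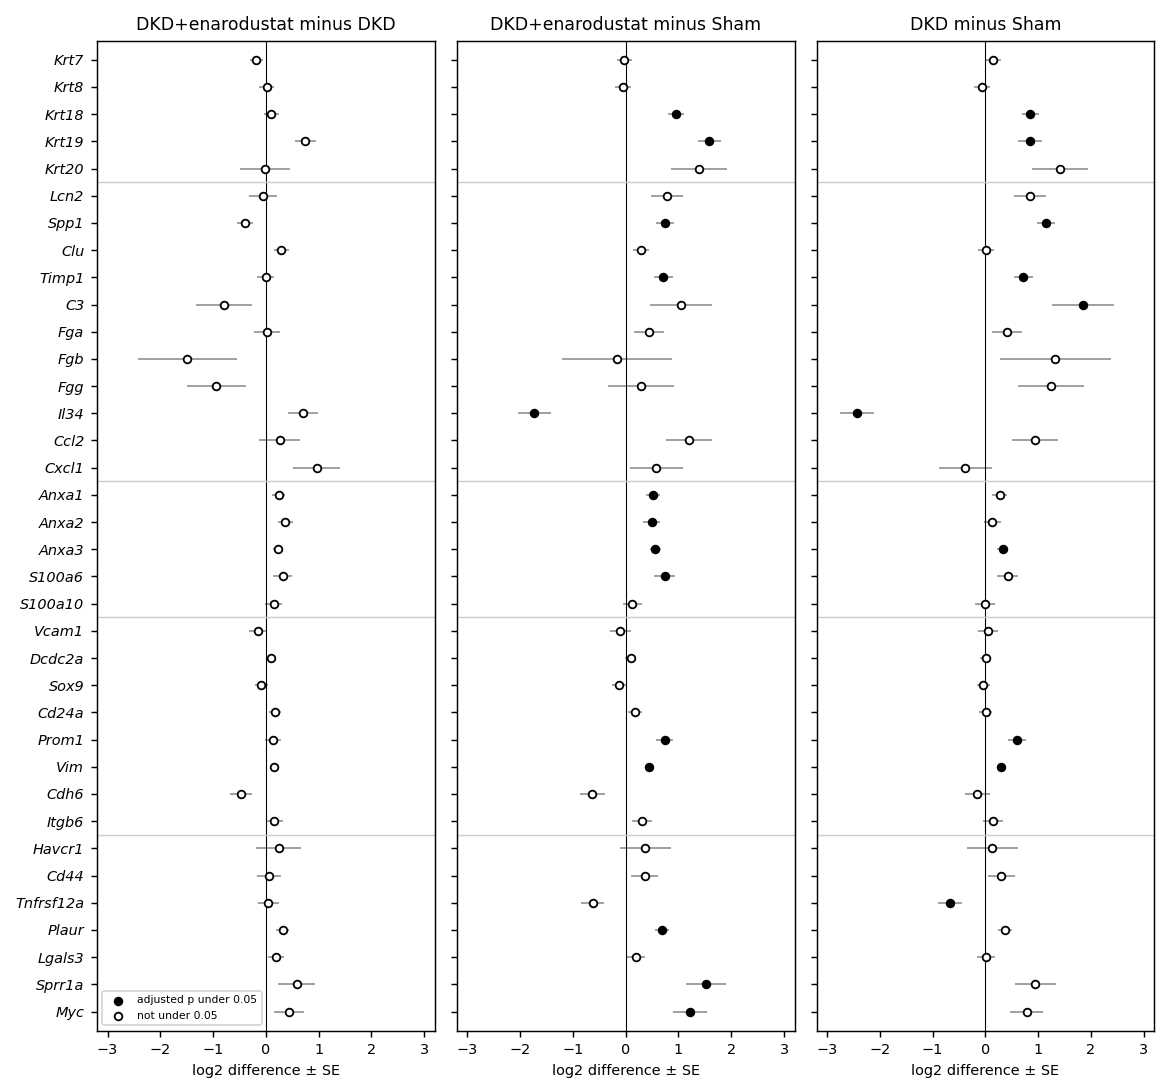
Log2 difference (x axis) ± SE of the 36 members, grouped by role from keratins at the top to surface receptors and growth genes at the bottom, in DKD+enarodustat minus DKD, DKD+enarodustat minus Sham and DKD minus Sham. Filled points have an adjusted p under 0.05: 0 in the left panel, 14 in the middle and 10 in the right.

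Because enarodustat stabilises HIF, which binds the core letters ACGTG and GCGTG, and because injury genes are often driven by AP-1, which binds TGAGTCA and its complement TGACTCA, the 250 bases before the start were read for members with an entry in the RefSeq table for GRCm38.p6. The 4 shown are of members that rose in DKD+enarodustat against Sham and that hold one of these motifs; Plaur and 1 of 2 starts of Prom1 also do, with 1 AP-1 motif each, and are not printed. Capitals mark the HIF core or AP-1 letters on either strand, and every run is 5′ to 3′ on the strand of the gene.
Krt18, chr15:102027966-102028215, plus strand: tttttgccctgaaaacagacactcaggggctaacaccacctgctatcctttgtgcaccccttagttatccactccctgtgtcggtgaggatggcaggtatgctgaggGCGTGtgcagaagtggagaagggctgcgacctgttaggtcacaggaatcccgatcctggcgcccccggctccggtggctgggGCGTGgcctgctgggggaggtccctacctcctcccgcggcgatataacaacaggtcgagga
Timp1, chrX:20869916-20870165, plus strand: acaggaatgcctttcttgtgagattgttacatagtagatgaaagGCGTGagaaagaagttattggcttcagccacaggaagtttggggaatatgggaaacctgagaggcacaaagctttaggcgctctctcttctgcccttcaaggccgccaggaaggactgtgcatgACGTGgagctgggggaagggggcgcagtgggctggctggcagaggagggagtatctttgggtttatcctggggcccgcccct
Anxa2, chr9:69453433-69453682, plus strand: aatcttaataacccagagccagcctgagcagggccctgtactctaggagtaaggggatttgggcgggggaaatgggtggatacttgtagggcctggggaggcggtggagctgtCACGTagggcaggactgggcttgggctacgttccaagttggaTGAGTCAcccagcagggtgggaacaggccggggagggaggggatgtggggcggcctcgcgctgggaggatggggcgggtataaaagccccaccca
Sprr1a, chr3:92485882-92486131, minus strand: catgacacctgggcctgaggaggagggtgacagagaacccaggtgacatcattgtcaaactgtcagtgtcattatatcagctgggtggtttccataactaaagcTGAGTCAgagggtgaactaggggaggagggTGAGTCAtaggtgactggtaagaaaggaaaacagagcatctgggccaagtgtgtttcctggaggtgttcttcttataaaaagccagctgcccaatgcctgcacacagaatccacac
Krt18 holds 2 HIF cores, which start 143 and 61 bases before the start, and Timp1 holds 2, at 206 and 82 bases. Anxa2 holds 1 HIF core at 137 bases and 1 AP-1 motif at 95, and Sprr1a holds 2 AP-1 motifs at 146 and 116 bases. Among the members, 26 matched the table with 31 starts, and 10 of these 31 windows (32.3%) hold a HIF core, against 38.6% of all 32851 windows of this length. AP-1 letters were in 5 of the 31 (16.1%), against 4.46% of all windows. A match says that the letters are there and nothing about binding.

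Keratins are the intermediate filaments of simple epithelia, and Krt8 and Krt18 pair with each other in them. Krt18 and Krt19 were higher in both diabetic groups than in Sham, and Krt7 and Krt8 passed in neither. Krt18, the type I partner whose upstream letters stand above, had levels of 2.21, 2.40 and 2.92 (lowest, median, highest) in DKD+enarodustat, 1.94, 2.36 and 3.16 in DKD, and 1.36, 1.54 and 1.82 in Sham. Every diabetic array lay above every Sham array. The mean rose by 0.95 ± 0.16 in DKD+enarodustat (1.94-fold, adjusted p = 0.000314 by limma) and by 0.85 ± 0.16 in DKD (1.80-fold, adjusted p = 0.00112), and the diabetic groups differed by 0.10 ± 0.14 (adjusted p = 0.897).

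Krt19, found in collecting duct, urothelium and progenitor-like tubule cells, rose in both diabetic groups. Its levels were −1.97, −1.44 and −0.58 in DKD+enarodustat, −2.91, −2.27 and −1.19 in DKD, and −3.29, −2.85 and −2.73 in Sham. All DKD+enarodustat arrays and 8 of 9 DKD arrays lay above all Sham arrays. Krt19 rose by 1.59 ± 0.22 in DKD+enarodustat (3-fold, adjusted p = 6.15e-05) and by 0.84 ± 0.22 in DKD (1.79-fold, adjusted p = 0.0161). All 9 DKD+enarodustat arrays were above the DKD mean, but the difference of 0.75 ± 0.20 had an adjusted p of 0.0906; without DKD 2 it was 0.86 with an adjusted p of 0.033. After normexp correction with quantile normalization the differences from Sham were 0.75 in DKD+enarodustat, which still passed, and 0.35 in DKD, which did not, nor did the DKD rise pass in the authors' processed values.

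The other keratins did not pass with all arrays and no block. Krt8 differed by −0.05 ± 0.16 in DKD+enarodustat and −0.07 ± 0.16 in DKD against Sham, with a 95% interval of −0.37 to 0.27 for the drug group. Krt7 differed by −0.03 ± 0.14 in DKD+enarodustat and 0.15 ± 0.14 in DKD. Krt20, a keratin of urothelium that injured proximal tubules switch on, was 1.39 ± 0.53 higher in DKD+enarodustat (adjusted p = 0.0773) and 1.41 ± 0.53 higher in DKD (adjusted p = 0.0883). Its level in DKD 2 was −0.74, against −3.56 in the next DKD array, and it was well above background on 8 of 9, 9 of 9 and 4 of 6 arrays of DKD+enarodustat, DKD and Sham. Where DKD 2 did not enter the shared spread, the same Krt20 difference of 1.39 in DKD+enarodustat had an adjusted p of 0.0112. The Krt20 difference in DKD without that array was 0.98 (adjusted p = 0.0979). With slide as a fixed block both passed (adjusted p = 0.0422 in DKD+enarodustat and 0.0491 in DKD), while after normexp correction with quantile normalization they were 0.20 and 0.28 and did not.

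**Figure D2:**
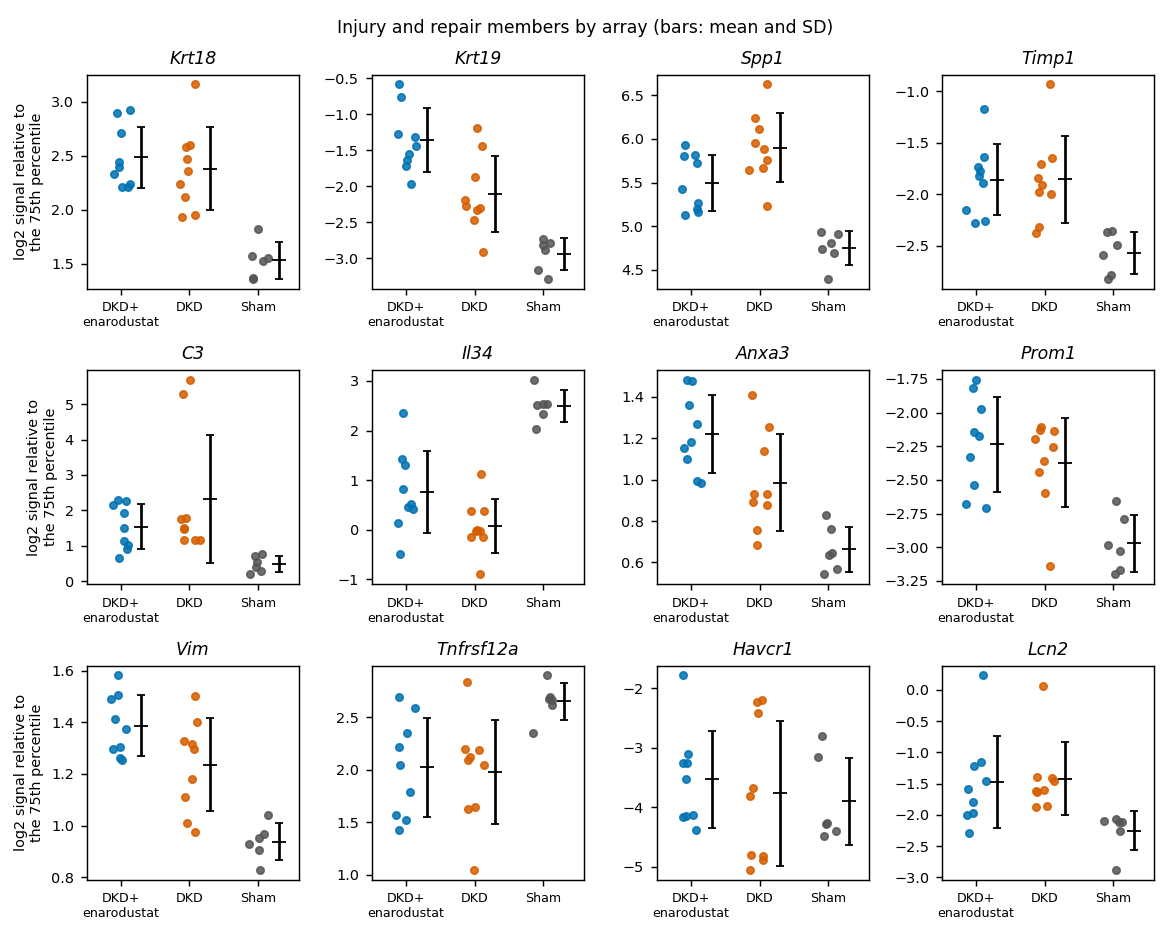
Log2 signal minus the array's 75th percentile (y axis) for 12 members, 1 point per array, with DKD+enarodustat on the left, DKD in the middle and Sham on the right of each panel; the bar is the mean and SD. Krt18, Spp1 and Timp1 in DKD+enarodustat lie above all Sham points, Il34 lies below them in DKD, and a single DKD point is far above the others for Lcn2 and 2 are for C3.

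Secreted injury proteins held the largest fall among the 36 members in both comparisons with Sham, that of Il34. Of 11 members, 2 rose and 1 fell in DKD+enarodustat, and 3 rose and 1 fell in DKD, against Sham. Spp1 (osteopontin), a matrix phosphoprotein of the thick limb and of injured tubules, had levels of 5.13, 5.43 and 5.93 in DKD+enarodustat, 5.23, 5.88 and 6.62 in DKD, and 4.40, 4.77 and 4.93 in Sham. No diabetic array overlapped Sham. Spp1 rose by 0.75 ± 0.17 in DKD+enarodustat (1.68-fold, adjusted p = 0.00418) and by 1.15 ± 0.17 in DKD (2.23-fold, adjusted p = 0.000134). The difference between DKD+enarodustat and DKD was −0.40 ± 0.15, with 8 of 9 drug arrays below the DKD mean, and did not pass (adjusted p = 0.294). Of 5 thick limb markers, 2 rose and 1 fell in DKD+enarodustat, and 3 rose and 1 fell in DKD, against Sham, with a mean level of 2.92 to 3.35 in DKD+enarodustat, 2.95 to 3.30 in DKD and 2.81 to 2.96 in Sham, and their part in the Spp1 result was not tested.

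Timp1, an inhibitor of matrix metalloproteinases that injured tissue secretes, rose in both diabetic groups. Its levels were −2.28, −1.82 and −1.17 in DKD+enarodustat, −2.37, −1.91 and −0.93 in DKD, and −2.82, −2.54 and −2.35 in Sham. All drug arrays and 8 of 9 DKD arrays lay above Sham. The rise was 0.71 ± 0.18 in both DKD+enarodustat (adjusted p = 0.00945) and DKD (adjusted p = 0.0110), and the diabetic groups differed by 0.00 ± 0.16, with a 95% interval of −0.34 to 0.33. After normexp correction with quantile normalization the Timp1 difference in DKD+enarodustat was 0.29 and did not pass (adjusted p = 0.0578), as in the authors' processed values (adjusted p = 0.0525), and that in DKD was 0.32 and passed (adjusted p = 0.0441).

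C3, the central complement protein, was higher in DKD, but its size rested on 2 arrays. Its levels were 0.66, 1.51 and 2.29 in DKD+enarodustat, 1.16, 1.51 and 5.69 in DKD, and 0.19, 0.47 and 0.78 in Sham, and all DKD arrays lay above Sham. DKD 2 at 5.69 and DKD 3 at 5.28 lay far above the other DKD arrays, and the medians of the diabetic groups were the same to 2 decimals. In DKD+enarodustat the difference from Sham was 1.05 ± 0.59 (adjusted p = 0.245) with all arrays, and the same 1.05 had an adjusted p of 0.00344 where DKD 2 and DKD 3 did not enter the shared spread. The DKD rise was 1.85 ± 0.59 (adjusted p = 0.0443) with all arrays, 1.43 without DKD 2 (adjusted p = 0.0564) and 0.95 without both (adjusted p = 0.0154). The fit without both arrays was chosen after seeing the data. A second C3 probe, with all arrays, gave 0.28 in DKD+enarodustat (adjusted p = 0.754) and 0.97 in DKD (adjusted p = 0.222) against Sham.

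Il34, a cytokine that injured tubules release and that acts on macrophages through the receptor CSF1R, went the other way. Its levels were −0.50, 0.51 and 2.35 in DKD+enarodustat, −0.91, −0.02 and 1.12 in DKD, and 2.04, 2.52 and 3.02 in Sham. In all, 8 of 9 DKD+enarodustat arrays and all 9 DKD arrays lay below every Sham array. Il34 fell by 1.73 ± 0.32 on the log2 scale in DKD+enarodustat (3.32-fold, adjusted p = 0.000751) and by 2.43 ± 0.32 in DKD (5.39-fold, adjusted p = 4.69e-05); a second probe gave −1.80 and −2.34. It was 0.70 ± 0.28 higher in DKD+enarodustat than in DKD (adjusted p = 0.337). Csf1r, which also marks macrophages, fell as well, by 0.65 ± 0.14 in DKD+enarodustat (adjusted p = 0.00306) and by 0.89 ± 0.14 in DKD (adjusted p = 0.000264), and the other 7 macrophage markers held 1 further call, a rise of Lyz2 in DKD+enarodustat (0.79 ± 0.27, adjusted p = 0.0457).

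Lcn2, the NGAL gene, did not pass in any comparison. Its levels were −2.29, −1.59 and 0.23 in DKD+enarodustat, −1.88, −1.61 and 0.06 in DKD, and −2.88, −2.12 and −2.07 in Sham. In all, 8 of 9 DKD+enarodustat arrays and every DKD array lay above every Sham array, and 1 array in each diabetic group, DKD+enarodustat 1 and DKD 2, stood far above the rest. The differences from Sham were 0.79 ± 0.30 in DKD+enarodustat (adjusted p = 0.0802) and 0.84 ± 0.30 in DKD (adjusted p = 0.0761). Where DKD 2 did not enter the shared spread, the same 0.79 in DKD+enarodustat had an adjusted p of 0.0384. The DKD difference without that array was 0.65 (adjusted p = 0.124). The DKD difference passed with only DKD and Sham in the fit, and in 1 of the 24 fits that left out 1 array (adjusted p = 0.0229). A second Lcn2 probe gave 1.13 in DKD+enarodustat (adjusted p = 0.0864) and 1.25 in DKD (adjusted p = 0.0713). The difference between DKD+enarodustat and DKD was −0.05 ± 0.27, with a 95% interval of −0.61 to 0.51.

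The chemokines Ccl2 and Cxcl1, which attract monocytes and neutrophils, and the chaperone Clu (clusterin) did not pass with all arrays. Ccl2 was 1.2 ± 0.43 higher in DKD+enarodustat (adjusted p = 0.0608) and 0.94 ± 0.43 higher in DKD (adjusted p = 0.174) than in Sham. Its DKD 2 level of 1.31 stood against −1.56 in the next DKD array. Where DKD 2 did not enter the shared spread, the same Ccl2 difference of 1.2 in DKD+enarodustat had an adjusted p of 0.00265. The Ccl2 difference in DKD without that array was 0.56 (adjusted p = 0.198). Cxcl1 differed by 0.58 ± 0.50 in DKD+enarodustat and −0.38 ± 0.50 in DKD, and Clu by 0.30 ± 0.15 in DKD+enarodustat and 0.00 ± 0.15 in DKD.

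Fibrinogen, a clotting protein of the liver that injured tubules also make, is assembled from the chains of Fga, Fgb and Fgg, and none of the 3 passed. Fgb ran from −6.21 to −0.81 in DKD+enarodustat (median −5.80), from −6.06 to −0.08 in DKD (median −1.96) and from −6.69 to −1.77 in Sham (median −3.18), and was well above background on 5 of 9, 8 of 9 and 4 of 6 arrays. Most arrays lay towards one end of that range or the other in every group, so no pooled correlation is given. Fgg was high where Fgb was high: it ran from −1.94 to 0.96 in DKD+enarodustat, from −1.98 to 2.77 in DKD and from −2.75 to 0.15 in Sham. Fga did not follow them, with −2.46 to −1.62, −2.77 to −0.26 and −2.72 to −2.18, and its 2 probes differed in sign in all 3 comparisons. Differences from Sham were −0.16 ± 1.05 for Fgb, 0.29 ± 0.62 for Fgg and 0.43 ± 0.28 for Fga in DKD+enarodustat, and 1.32 ± 1.05, 1.24 ± 0.62 and 0.41 ± 0.28 in DKD. The liver marker Alb ran from −2.78 to −1.21 in DKD+enarodustat, from −2.72 to −0.33 in DKD and from −2.11 to −1.0 in Sham, and the part of liver RNA in the fibrinogen values was not tested.

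**Figure D3:**
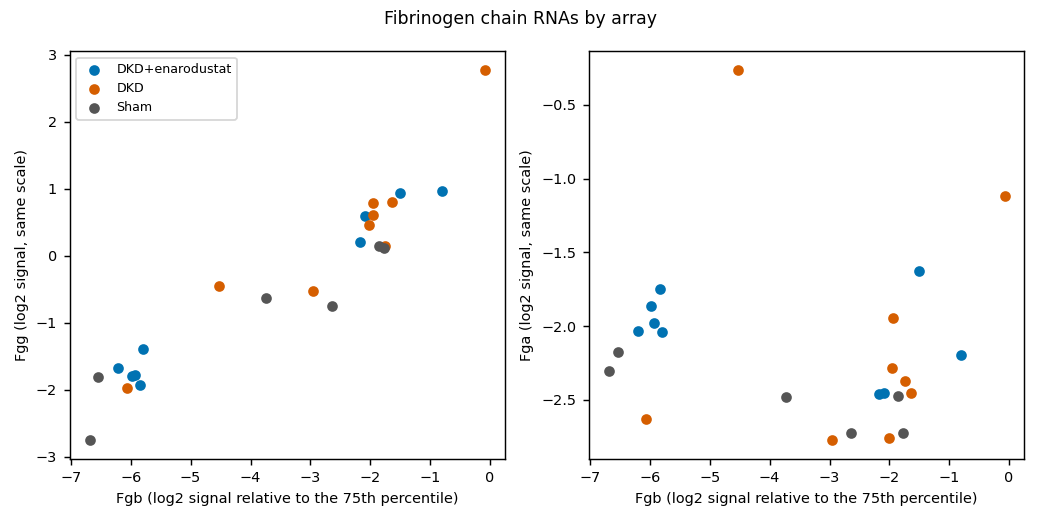
Levels of Fgg (left panel, y axis) and Fga (right panel, y axis) against Fgb (x axis), as log2 signals minus the 75th percentile, 1 point per array. Fgg is high on the arrays where Fgb is high, Fgb spans −6.69 to −0.08, and Fga shows no such order.

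Annexins bind membranes in the presence of calcium, and Anxa2 works as a complex with S100a10. Of these 5 members, 4 rose in DKD+enarodustat and 1 in DKD against Sham, and all 5 had a positive difference between DKD+enarodustat and DKD, from 0.14 to 0.37, none of which passed. Anxa1, known for resolving inflammation, had levels of 0.32, 0.62 and 1.22 in DKD+enarodustat, −0.06, 0.29 and 0.89 in DKD, and 0.02, 0.08 and 0.31 in Sham. All drug arrays lay above Sham and 4 of 9 DKD arrays did. The rise in DKD+enarodustat was 0.51 ± 0.14 (1.43-fold, adjusted p = 0.0126), and the DKD difference was 0.27 ± 0.14 (adjusted p = 0.228).

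Anxa3 was the annexin that passed in both diabetic groups. Its levels were 0.99, 1.18 and 1.48 in DKD+enarodustat, 0.69, 0.93 and 1.41 in DKD, and 0.54, 0.64 and 0.83 in Sham, and all drug arrays and 7 of 9 DKD arrays lay above Sham. It rose by 0.56 ± 0.11 in DKD+enarodustat (adjusted p = 0.000929) and by 0.32 ± 0.11 in DKD (adjusted p = 0.0475); the DKD call was lost in 16 of the 24 fits that left out 1 array, with an adjusted p of 0.084 without DKD 2. Anxa2 had levels of 3.57, 4.01 and 4.85 in DKD+enarodustat, 3.15, 3.74 and 4.09 in DKD, and 3.42, 3.49 and 3.78 in Sham. It rose by 0.50 ± 0.16 in DKD+enarodustat (adjusted p = 0.0395), with 8 of 9 arrays above Sham, and differed by 0.13 ± 0.16 in DKD (adjusted p = 0.697). That rise did not hold in 9 of the 24 fits with 1 array left out, nor in the other Anxa2 probe (0.39, adjusted p = 0.0996).

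S100a6, a small calcium-binding protein, rose in the drug group against Sham. Its levels were 2.03, 2.31 and 3.33 in DKD+enarodustat, 1.32, 2.13 and 2.65 in DKD, and 1.46, 1.67 and 1.93 in Sham, with no overlap between drug arrays and Sham. The rise was 0.74 ± 0.20 (1.67-fold, adjusted p = 0.0129), and the DKD difference was 0.42 ± 0.20 (adjusted p = 0.185). S100a6 was 0.32 ± 0.18 higher in DKD+enarodustat than in DKD, which did not pass (adjusted p = 0.552 by limma). S100a10 differed by 0.13 ± 0.19 in DKD+enarodustat and by −0.02 ± 0.19 in DKD, while its partner Anxa2 differed by the values above. Markers of urothelium, which lines the renal pelvis and makes keratins and annexins, moved with these genes: over 7 of 8 listed genes, Upk3b being too dim to test, the mean level was −2.87 to −1.32 in DKD+enarodustat, −2.74 to −1.80 in DKD and −3.38 to −2.45 in Sham, with DKD+enarodustat 5 at the top. Of these, Upk1b and Upk2 rose in DKD+enarodustat (1.39 ± 0.34, adjusted p = 0.00736, and 1.03 ± 0.32, adjusted p = 0.0327) and Upk1b in DKD (1.1 ± 0.34, adjusted p = 0.0377). The part of urothelium in the keratin and annexin results was not tested.

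Of 8 failed-repair and progenitor genes, 2 rose in both diabetic groups against Sham. Vim (vimentin), a filament of mesenchymal and dedifferentiated cells, had levels of 1.26, 1.38 and 1.58 in DKD+enarodustat, 0.97, 1.30 and 1.5 in DKD, and 0.83, 0.94 and 1.04 in Sham. All drug arrays and 7 of 9 DKD arrays lay above Sham. It rose by 0.45 ± 0.08 in DKD+enarodustat (1.37-fold, adjusted p = 0.000613) and by 0.30 ± 0.08 in DKD (1.23-fold, adjusted p = 0.0167).

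Prom1 (CD133), carried by scattered progenitor-like tubule cells, had levels of −2.71, −2.17 and −1.76 in DKD+enarodustat, −3.14, −2.26 and −2.11 in DKD, and −3.2, −3.01 and −2.65 in Sham. Of the drug arrays 7 of 9, and of the DKD arrays 8 of 9, lay above Sham. It rose by 0.74 ± 0.16 in DKD+enarodustat (adjusted p = 0.00356) and by 0.60 ± 0.16 in DKD (adjusted p = 0.0182), and a second probe rose too (0.62 and 0.46). After normexp correction with quantile normalization the Prom1 differences were 0.27 in DKD+enarodustat (adjusted p = 0.0229) and 0.22 in DKD (adjusted p = 0.0837). The DKD call was also lost in the authors' processed values, with median centring, with slide row, with the replicate block and without DKD 2 and DKD 3. The other 6 members did not pass. Vcam1, the adhesion molecule of failed-repair tubules, differed by −0.10 ± 0.19 in DKD+enarodustat and 0.05 ± 0.19 in DKD, and Dcdc2a by 0.09 ± 0.10 and 0.00 ± 0.10. Sox9, the transcription factor of regenerating tubules, differed by −0.12 ± 0.13 and −0.04 ± 0.13, Cd24a by 0.18 ± 0.13 and 0.00 ± 0.13, and Itgb6 by 0.30 ± 0.19 and 0.14 ± 0.19. Over the alternatives, the Sox9 difference in DKD+enarodustat ran from −0.51 to −0.04. It passed with the mean over all probes of the gene, of which 1 of 2 was too dim to test alone. Cdh6, a cadherin of the developing nephron, had the largest negative difference of this group, −0.63 ± 0.23 in DKD+enarodustat (adjusted p = 0.068) and −0.16 ± 0.23 in DKD. The Cdh6 difference in DKD+enarodustat passed under 6 alternatives, among them slide as a fixed block (adjusted p = 0.0489) and normexp correction with quantile normalization (−0.24, adjusted p = 0.0372), and a second probe gave −0.19 (adjusted p = 0.47).

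Surface receptors and growth genes gave 3 rises in DKD+enarodustat and 1 fall in DKD against Sham, and Havcr1 passed in no comparison. Havcr1 (KIM-1), a phagocytic receptor that injured proximal tubules display, had levels of −4.39, −3.53 and −1.78 in DKD+enarodustat, −5.05, −3.82 and −2.19 in DKD, and −4.49, −4.27 and −2.80 in Sham. It was well above background on all 24 arrays, and the groups overlapped. Differences were 0.37 ± 0.48 for DKD+enarodustat minus Sham (adjusted p = 0.669), 0.13 ± 0.48 for DKD minus Sham (adjusted p = 0.911) and 0.24 ± 0.43 for DKD+enarodustat minus DKD (adjusted p = 0.927). The 95% interval in DKD, −0.87 to 1.13, leaves room for a change in either direction.

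Sprr1a and Myc rose in the drug group against Sham by more than the list median. Sprr1a, a cornified-envelope protein that regenerating tissues induce and whose upstream letters hold 2 AP-1 motifs, had levels of −2.40, −1.30 and −0.14 in DKD+enarodustat, −3.14, −1.70 and −0.58 in DKD, and −4.05, −2.72 and −2.42 in Sham, with no overlap between drug arrays and Sham. It rose by 1.52 ± 0.39 in DKD+enarodustat (2.87-fold, adjusted p = 0.0094), and the DKD difference was 0.94 ± 0.39 (adjusted p = 0.124). Myc, a growth transcription factor, had levels of −3.0, −2.15 and −0.64 in DKD+enarodustat, −3.42, −2.41 and −1.5 in DKD, and −3.79, −3.31 and −2.50 in Sham. It rose by 1.22 ± 0.32 in DKD+enarodustat (2.33-fold, adjusted p = 0.0105), with 7 of 9 arrays above Sham, and differed by 0.78 ± 0.32 in DKD (adjusted p = 0.115). After normexp correction with quantile normalization both rises in DKD+enarodustat still passed but were 0.75 for Sprr1a and 0.53 for Myc. The diabetic groups differed by 0.58 ± 0.35 in Sprr1a (adjusted p = 0.59 by limma) and by 0.43 in Myc, and neither passed.

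Plaur, the urokinase receptor, had levels of −1.47, −1.05 and −0.66 in DKD+enarodustat, −1.64, −1.29 and −1.03 in DKD, and −2.13, −1.68 and −1.32 in Sham. It rose by 0.69 ± 0.13 in DKD+enarodustat (1.62-fold, adjusted p = 0.00115), and the DKD difference of 0.38 ± 0.13 had an adjusted p of 0.0696, and of 0.0475 with slide as a fixed block. After normexp correction with quantile normalization the Plaur rise in DKD+enarodustat was 0.40 (adjusted p = 0.00257). Plaur was 0.32 ± 0.12 higher in DKD+enarodustat than in DKD, which did not pass (adjusted p = 0.298 by limma). Tnfrsf12a, the receptor of the cytokine TWEAK, was the other member besides Il34 that fell. Its levels were 1.42, 2.04 and 2.70 in DKD+enarodustat, 1.05, 2.09 and 2.84 in DKD, and 2.36, 2.67 and 2.90 in Sham, with 7 of 9 drug arrays and 8 of 9 DKD arrays below Sham. It fell by 0.67 ± 0.22 in DKD (1.59-fold, adjusted p = 0.0478), a call lost in 16 of the 24 fits with 1 array left out (adjusted p = 0.0582 without DKD 2), and was −0.63 ± 0.22 in DKD+enarodustat (adjusted p = 0.054). The Tnfrsf12a difference in DKD+enarodustat passed under other settings, among them slide as a fixed block (adjusted p = 0.0254) and normexp correction with quantile normalization (adjusted p = 0.0386). Cd44, a hyaluronan receptor, differed by 0.36 ± 0.25 and 0.30 ± 0.25, and Lgals3 (galectin-3) by 0.20 ± 0.17 and 0.00 ± 0.17, in DKD+enarodustat and DKD.

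**Figure D4:**
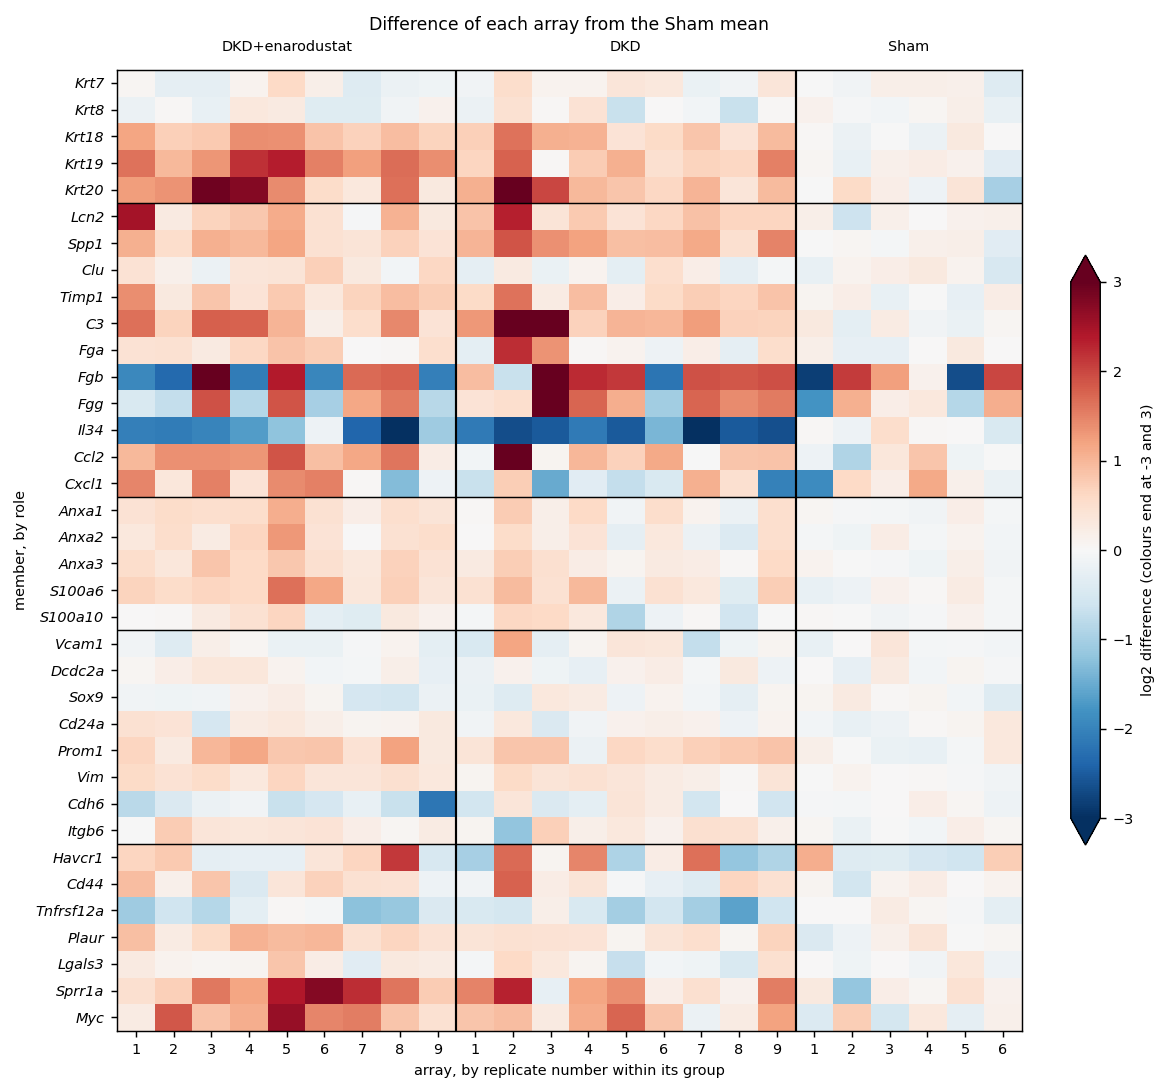
Difference of each array from the Sham mean (colour, log2, ending at −3 and 3) for the 36 members (rows, by role) and the 24 arrays (columns, by replicate number), with DKD+enarodustat on the left, DKD in the middle and Sham on the right. Krt18, Krt19 and Spp1 are raised across both diabetic blocks, Il34 is lowered across them, and the column of DKD 2 is raised in most rows.

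Arrays of the diabetic groups differed from each other more than Sham arrays did. The median SD over the members was 0.35 in DKD+enarodustat, 0.48 in DKD and 0.22 in Sham, and 0.28, 0.31 and 0.20 over all genes tested. In each DKD+enarodustat array 16 to 28 members lay above all 6 Sham arrays, as did 18.4% to 36.9% of all genes. In each DKD array 11 to 26 members did, as did 16.7% to 34.5% of all genes, and DKD 2 had the most. DKD+enarodustat 5 was the highest of its group in 14 members (38.9%) and in 30% of all genes. Without DKD 2, the counts called were 17 in DKD+enarodustat and 7 in DKD against Sham and 1, Krt19, between the diabetic groups. Over all 17736 genes they were 2796, 1768 and 99, in the same order. Without DKD 2 and DKD 3 the member counts were 21, 7 and 0, beside 2849, 1674 and 60 over all genes. Neither array is in DKD+enarodustat or Sham, so the differences between those groups stayed the same and only the shared spread moved.

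Between arrays of 1 group, some members moved together. The 20 pairs tested were chosen with earlier results of these data known. Of the 20, with deviations from the group mean over 24 arrays, 10 had an adjusted p under 0.05 for Pearson's r by permutation, 1 of them the clustered pair Fgb and Fgg. Pairs of other genes were not tested, so no share over all genes stands beside these 10. Arrays also differed over all genes: DKD+enarodustat 5 was the highest of its group in 30% of them and DKD+enarodustat 7 the lowest in 22.4%. Anxa1 and Anxa2 had r = 0.91 and rho = 0.80 (permutation p = 1e-05, the smallest that 100000 permutations can give, and 0.00014; adjusted p = 1e-04 and 0.0014), r = 0.93 within slides and r = 0.85 without the 2 arrays farthest out in Anxa1. In every pair the 2 arrays left out were the farthest in the gene named first, whatever its partner did. Krt8 and Krt18 had r = 0.74 and rho = 0.60 (permutation p = 0.00037 and 0.00537; adjusted p = 0.00185 and 0.0269). Their r was 0.77 within slides, 0.66 without the farthest 2 (DKD 5 and DKD 8) and 0.68 without DKD 2. Krt7 and Krt19 had r = 0.74 and rho = 0.72 (permutation p = 9e-05 and 0.00035; adjusted p = 0.0006 and 0.00233), 0.74 within slides and 0.60 without the farthest 2. Within DKD+enarodustat, DKD and Sham alone, r was 0.94, 0.95 and 0.25 for Anxa1 and Anxa2. It was 0.58, 0.86 and 0.36 for Krt8 and Krt18, and 0.84, 0.63 and 0.96 for Krt7 and Krt19. Krt8 and Krt7, which passed in no comparison, thus varied with their partners from array to array, Krt8 less closely in Sham.

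Other pairs leaned on a few arrays. Timp1 and Lcn2 had r = 0.73 and rho = 0.48 (permutation p = 0.00149 and 0.02; adjusted p = 0.00426 and 0.0485), 0.83 within slides, but 0.30 without DKD 2 and DKD+enarodustat 1, on which the relation rests. Vcam1 and Ccl2 had r = 0.79 and rho = 0.55 (permutation p = 0.00071 and 0.00791; adjusted p = 0.00267 and 0.0289), 0.81 within slides, where it did not pass (adjusted p = 0.0787), and 0.48 without DKD 2 and DKD 7. Havcr1 and Lcn2 had r = 0.36 and rho = 0.33 (permutation p = 0.0915 and 0.108; adjusted p = 0.141 and 0.166), 0.46 within slides and 0.16 without the farthest 2.

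**Figure D5:**
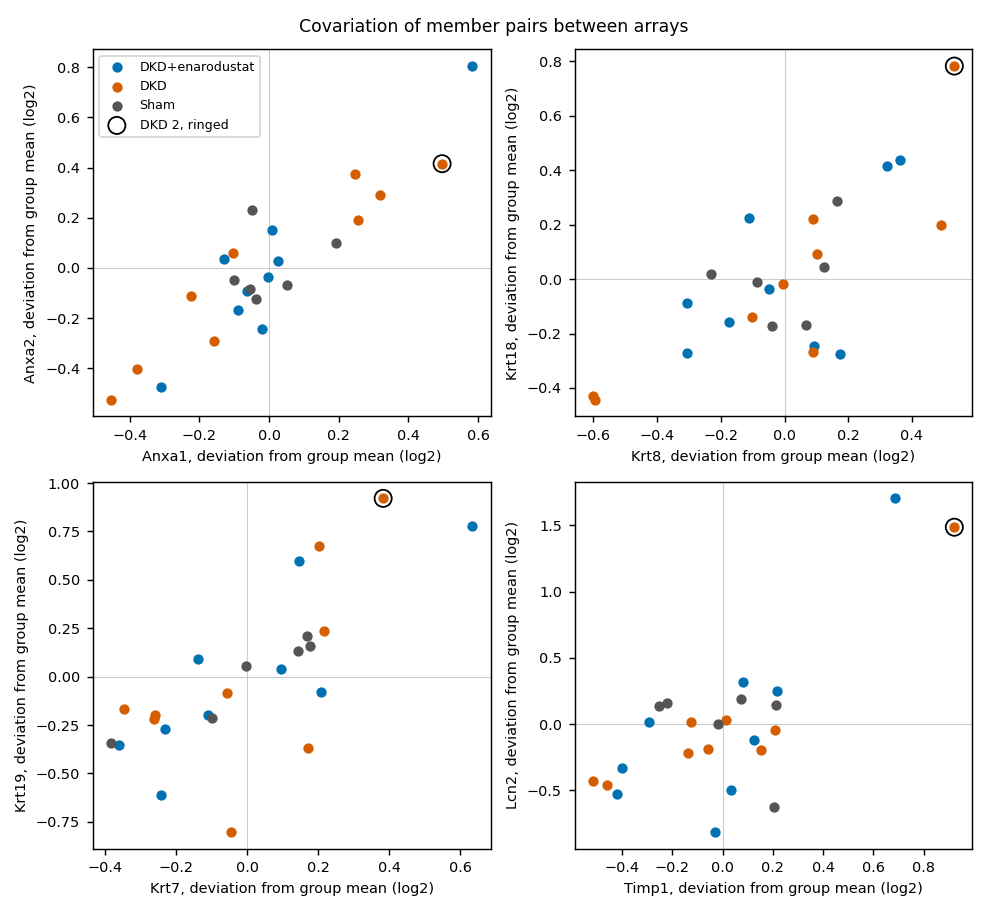
Deviations from the group mean (log2) of 4 member pairs, 1 point per array, with DKD 2 ringed. With the groups pooled, Anxa2 follows Anxa1 (r = 0.91), and Krt18 follows Krt8 and Krt19 follows Krt7 (r = 0.74 each). In Sham alone r was 0.25, 0.36 and 0.96, in the same order. In the plot of Lcn2 against Timp1, 2 arrays stand far above the rest.

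A wider list of injury and repair genes held further calls. Of 83 tested genes of 92 listed, 15 rose and 4 fell in DKD+enarodustat, 9 rose and 6 fell in DKD, and 0 were called between the diabetic groups, where limma had 11 at an unadjusted p under 0.05. Over all genes tested, 8.74% rose and 6.75% fell in DKD+enarodustat, and 5.47% rose and 6.13% fell in DKD. The falls of the wider list were thus near the share over all genes. In DKD+enarodustat the largest rises of the wider list were Cdkn1a (2.12 ± 0.29, adjusted p = 5.03e-05), Gdf15 (1.18 ± 0.24, adjusted p = 0.00163), the chemokine Cxcl10 (1.05 ± 0.29, adjusted p = 0.0168) and S100a4 (0.88 ± 0.17, adjusted p = 0.00101). The falls were Anxa13 (−3.0 ± 0.45), Met (−0.95 ± 0.13), complement factor Cfb (−0.65 ± 0.17) and Il18 (−0.53 ± 0.12).

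In DKD the largest rises were Cdkn1a, a cell-cycle inhibitor (1.52 ± 0.29, adjusted p = 0.00143), the copper carrier Cp (1.52 ± 0.38, adjusted p = 0.011), the stress cytokine Gdf15 (0.90 ± 0.24, adjusted p = 0.0135) and the adhesion molecule Icam1 (0.63 ± 0.14, adjusted p = 0.0057). The largest falls in DKD were Anxa13 (−3.25 ± 0.45, adjusted p = 8.37e-05), S100a9 (−1.07 ± 0.23), S100a8 (−1.03 ± 0.24) and Met, the receptor of hepatocyte growth factor (−0.97 ± 0.13). S100a8 and S100a9 are neutrophil proteins, and of the 4 neutrophil markers tested 0 passed in DKD+enarodustat and both of these fell in DKD. Anxa13 thus lay far below Sham in both diabetic groups, while Anxa1, Anxa2 and Anxa3 were not below it.

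Cell type markers moved with the members in places. Of 8 principal cell markers of the collecting duct, 6 rose in each diabetic group, among them Aqp2 (0.93 ± 0.14 in DKD+enarodustat and 0.91 ± 0.14 in DKD) and Elf5 (0.95 ± 0.17 and 0.85 ± 0.17), and their mean level was 0.46 to 0.97 in DKD+enarodustat, 0.53 to 1.0 in DKD and −0.03 to 0.55 in Sham. Of 12 proximal tubule markers, 4 fell in DKD+enarodustat, and 3 fell and 1 rose in DKD, among them Slc22a6 (−0.67 ± 0.12 and −0.75 ± 0.12). The shares over all genes against Sham were 8.74% higher and 6.75% lower in DKD+enarodustat, and 5.47% and 6.13% in DKD. The collecting duct makes Krt18 and Krt19 too, and the part of either cell type in the member results was not tested. Of 6 endothelial markers, 3 rose in DKD+enarodustat against DKD (Cdh5 by 0.43 ± 0.08, Emcn by 0.43 ± 0.09 and Tie1 by 0.40 ± 0.09), beside 0 of 36 members and 0.609% of all genes tested.

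Position on the slide limits the comparisons. Every DKD+enarodustat array was in row 2 of its slide and every Sham array in row 1. Of the DKD arrays 3 were in row 2 and 6 in row 1, so row and group are separated through the DKD arrays alone. With row as a term, 4 of the 14 calls of DKD+enarodustat against Sham were left, Krt18, Krt19, Il34 and Sprr1a, and 7 members were called in DKD. Over all genes, row as a term gave 889 calls in DKD+enarodustat against Sham, beside 1550 higher and 1198 lower without it. In DKD against Sham it gave 2182, beside 971 higher and 1087 lower without it. Of the 10 members that lost their call in DKD+enarodustat, differences with row as a term ran from 0.18 for Anxa2, against 0.50 without it, to 1.22 for Myc, as without it, with 0.93 for Timp1, 0.59 for Spp1 and 0.39 for Vim. With each array centred on its median, the median of all genes moved to −0.16 in DKD+enarodustat and −0.12 in DKD against Sham, and that of the members to 0.30 and 0.20. That centring called 378 genes higher and 925 lower in DKD, against 971 and 1087, and 4 members, Krt18, Spp1, Timp1 and Il34.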

How the data were processed

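Total RNA of whole kidney was labelled with Cy3 and hybridised to single-colour Agilent arrays, per the labels' protocols. The deposited intensity values are background-subtracted signals from Agilent Feature Extraction 12.1.1.1, per the file headers. Version 11.5.1.1 and limma appear in the submitters' processing notes. The authors also deposited log2 values, and normexp correction with an offset of 50 and quantile normalization of the median signals gave all but 762 of those 753816 values within 0.05. Here, log2 signals had the 75th percentile of their array subtracted (non-control spots, spots of 1 probe averaged). Genes entered the test with their brightest probe, if Feature Extraction called it well above background on 6 or more of the 24 arrays. Groups were compared in 1 limma 3.58.1 fit (R 4.3.3) with Benjamini-Hochberg adjustment over 17736 genes, checked on simulated data. Array signals at the 75th percentile were 187 to 388, 63.6% to 75.4% of spots were well above background and 0 were saturated; the number of arrays limits the precision. The labels do not say more than that samples are separate, so p-values measure the spread between these samples. All members are described, and of the wider list the 4 largest rises and the 4 largest falls among those called. Members, lists, pairs and motifs were chosen with earlier results of these data known. Pairs were tested by permutation within groups (100000 permutations, two-sided). Of 56605 probes, 32994 carried 1 gene name through their accession. Alternatives covered normalization, filter, probe choice, slide, slide row, replicate number and single arrays.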

Additional observations from a re-analysis of the deposited data

Results flagged for a closer look

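In 17 of 108 sets of a member and a group, 1 array lay far from the others by Dixon's test, where chance gives about 1 in 20 (5.4). DKD+enarodustat 5 held 2 of these, as the highest of its group for Anxa1 (1.22) and Anxa2 (4.85). Single arrays of DKD+enarodustat stood apart for Lcn2 (DKD+enarodustat 1, 0.23, the highest), Cd24a (DKD+enarodustat 3, 2.16, the lowest), Cdh6 (DKD+enarodustat 9, −4.67, the lowest) and Havcr1 (DKD+enarodustat 8, −1.78, the highest). DKD 2 held 6 of the 17: it was the highest DKD array for Krt20 (−0.74), Lcn2 (0.0648), Timp1 (−0.93), Ccl2 (1.31) and Cd44 (−2.03), and the lowest for Itgb6 (1.25). DKD 4 was the lowest of its group for Prom1 (−3.14). Sham 2 was the lowest Sham array for Lcn2 (−2.88), Cd44 (−4.34) and Sprr1a (−4.05), and Sham 5 the highest for Lgals3 (3.07). All values are log2 signals minus the array's 75th percentile.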

How the results depend on the processing

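Of the alternatives run, none turned the sign of a called member. Members called in DKD+enarodustat against Sham numbered 14 and were 4 with slide row as a term (3 higher, 1 lower), and 13 to 17 with 1 array left out. Members called in DKD against Sham numbered 10 and were 4 with each array centred on its median (3 higher, 1 lower), and 7 to 10 with 1 array left out. With 1 array left out, calls over all genes ran from 1967 to 3040 in DKD+enarodustat and from 1471 to 2260 in DKD against Sham. Between DKD+enarodustat and DKD the member count was 0 under every alternative except without DKD 2, where it was 1, so that leaving out 1 array gave 0 to 1. With replicate number as a replicate block the member counts were 15 in DKD+enarodustat against Sham, 9 in DKD against Sham and 0 between the diabetic groups. Over all genes they were 2200, 1461 and 66, in the same order. Between groups, 10 of 21 same-numbered pairs correlated above 0.1, and 3 of 24 arrays correlated best with their own number. The median correlation was 0.097 for same and −0.024 for other numbers, and 0.189 on the same and −0.093 on other slides. Same-numbered arrays often shared a slide, so whether the numbers pair the samples cannot be decided. Over all genes, calls between DKD+enarodustat and DKD numbered 20 with slide row, 36 with median centring, 47 with those groups alone, 60 without DKD 2 and DKD 3 (an alternative chosen after seeing the data), 66 with the replicate block and up to 177 with slide as a fixed block, against 108 higher and 19 lower calls. With slide row, 889 genes were called in DKD+enarodustat against Sham, and with median centring 706 were higher and 1652 lower, against 1550 and 1198. Of the 20 pairs, 10 passed, and 7 passed with deviations within slides. The causes were not tested. The planned normexp correction of mean signals was not run, because the files used hold median signals. The Krt20 differences, not called, were 0.20 (DKD+enarodustat) and 0.28 (DKD) against Sham under normexp.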
